A study of Bos taurus with 14 samples.

Results

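The miR-30 family was followed in bovine blood through the 7 names that the deposited library files list for it, out of 932 miRNA names with reads in any library. A name belonged to the family when it began with bta-miR-30 followed by a letter from a to f, and bta-miR-301a and similar names were left out. Each of 6 hairpins gave a guide-arm name (bta-miR-30a-5p, bta-miR-30b-5p, bta-miR-30c, bta-miR-30d, bta-miR-30e-5p and bta-miR-30f), and the hairpin of miR-30b also gave a passenger-arm name, bta-miR-30b-3p. All 7 names reached at least 10 reads in total both in plasma and in leucocytes. Each leucocyte library and each high-grain plasma library held 7 of the 7 names, whereas each forage plasma library held 6.

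The libraries came from 4 ruminally cannulated, non-lactating Holstein cows without any genetic modification, in a feeding model of subacute ruminal acidosis. Every cow was first fed forage without grain (FD, 0% concentrate) and later, for the second sample, was in week 1 of high-grain feeding (HG, 65% concentrate). Diet and time therefore cannot be told apart. Plasma gave 8 libraries, 4 per diet from cows 1 to 4, and the buffy coat gave 6 leucocyte libraries, 3 per diet from cows 1, 3 and 4. Plasma and leucocyte RNA was isolated with different kits, so that a difference between the sample types and a difference between the kits cannot be told apart.

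A miRNA hairpin is cut into 2 arms, of which the guide arm is loaded into an Argonaute protein and represses messenger RNAs, while the passenger arm is mostly degraded. Target choice depends above all on the seed, bases 2 to 8 from the 5′ end, and the guide arms of the miR-30 family share theirs. The family is abundant in epithelia, kidney, heart and muscle, where it is known to restrain SNAI1 and other drivers of epithelial-to-mesenchymal transition, and miR-30a is known as a repressor of the autophagy gene BECN1. In blood, miRNAs circulate in vesicles and in protein complexes that are released by many tissues as well as by blood cells.

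The 6 hairpins lay in 3 pairs of neighbours on the UMD3.1 build named by the study. On chromosome 9, minus strand, bta-miR-30f was placed at chr9:10730942-10730965 and bta-miR-30a-5p at chr9:10768282-10768305, with 37316 bases between them. On chromosome 3, minus strand, bta-miR-30c at chr3:106059383-106059405 and bta-miR-30e-5p at chr3:106062508-106062531 were 3102 bases apart. On chromosome 14, plus strand, bta-miR-30d at chr14:8080297-8080320 and bta-miR-30b-5p at chr14:8084737-8084758 were 4416 bases apart, and bta-miR-30b-3p followed its guide arm at chr14:8084775-8084795. In the RefSeq gene table of the later ARS-UCD2.0 assembly, MIR30C and MIR30E lie within NFYC, which encodes a subunit of the NF-Y transcription factor. MIR30A lies within the protein-coding gene LOC132346186, and MIR30B, MIR30D and MIR30F lie within no other gene of that table.

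Between 376589 and 4464702 reads per plasma library and between 21764579 and 66070770 per leucocyte library were assigned to miRNAs. These reads were 39.3 to 58.1% of all reads analysed in FD plasma, 59.3 to 72.0% in HG plasma and 83.4 to 91.7% in leucocytes. Levels are given as deposited, in reads scaled to a total of 1000000 miRNA reads (RPM). Of the 7 leucocyte markers all had reads in every group, and their sum was 14678 to 25183 RPM in plasma and 20623 to 31085 RPM in leucocytes. Not every marker followed the sum. bta-miR-223 was at 2650 to 14512 RPM in plasma and 4864 to 6342 RPM in leucocytes, and bta-miR-155 at 37.1 to 634 and 175 to 323 RPM. The 3 erythrocyte markers, bta-miR-451, bta-miR-144 and bta-miR-486, summed to 28701 to 93440 RPM in plasma and to 154131 to 298915 RPM in leucocytes, so that the leucocyte label stands for a buffy coat that also held erythrocyte miRNAs. The liver miRNA bta-miR-122 was at 5170 to 61652 RPM in plasma and at 16.7 to 75.7 RPM in leucocytes, and the 3 muscle miRNAs summed to 201 to 1375 RPM in plasma and to at most 43.1 RPM in leucocytes. A pair of libraries lay at an extreme. FD plasma of cow 1 had the fewest reads of all. FD leucocytes of cow 4 had the fewest leucocyte reads and the most bta-miR-30d and bta-miR-30a-5p of the leucocyte libraries. Results given below without cow 1 or cow 4 leave out all libraries of that cow in the fit. In bulk samples of this kind, fewer cells of a type and less RNA per cell cannot be told apart.

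Together the 7 names made up 3.87% ± 1.06 (SD, n = 4) of miRNA reads in FD plasma, 4.39% ± 0.387 (n = 4) in HG plasma, 3.05% ± 0.230 (n = 3) in FD leucocytes and 2.97% ± 0.322 (n = 3) in HG leucocytes. The single libraries ranged from 2.99 to 5.23% in plasma and from 2.61 to 3.24% in leucocytes, so the sample types overlapped in this total. The overlap depends on the denominator. With reads of several names divided among them, all names summed to 71.2 to 78.7% of miRNA reads in plasma and 84.2 to 87.1% in leucocytes. With all reads analysed as the denominator the means were 1.81, 2.85, 2.69 and 2.59% in the same order of groups, and FD plasma was then the lowest instead of above both leucocyte groups. The leading member, in contrast, differed between them without exception. bta-miR-30d led the family in 8 of 8 plasma libraries, where it ranked 4th to 16th among all names, and bta-miR-30e-5p led it in 6 of 6 leucocyte libraries, where it ranked 10th to 13th.

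**Figure D1:**
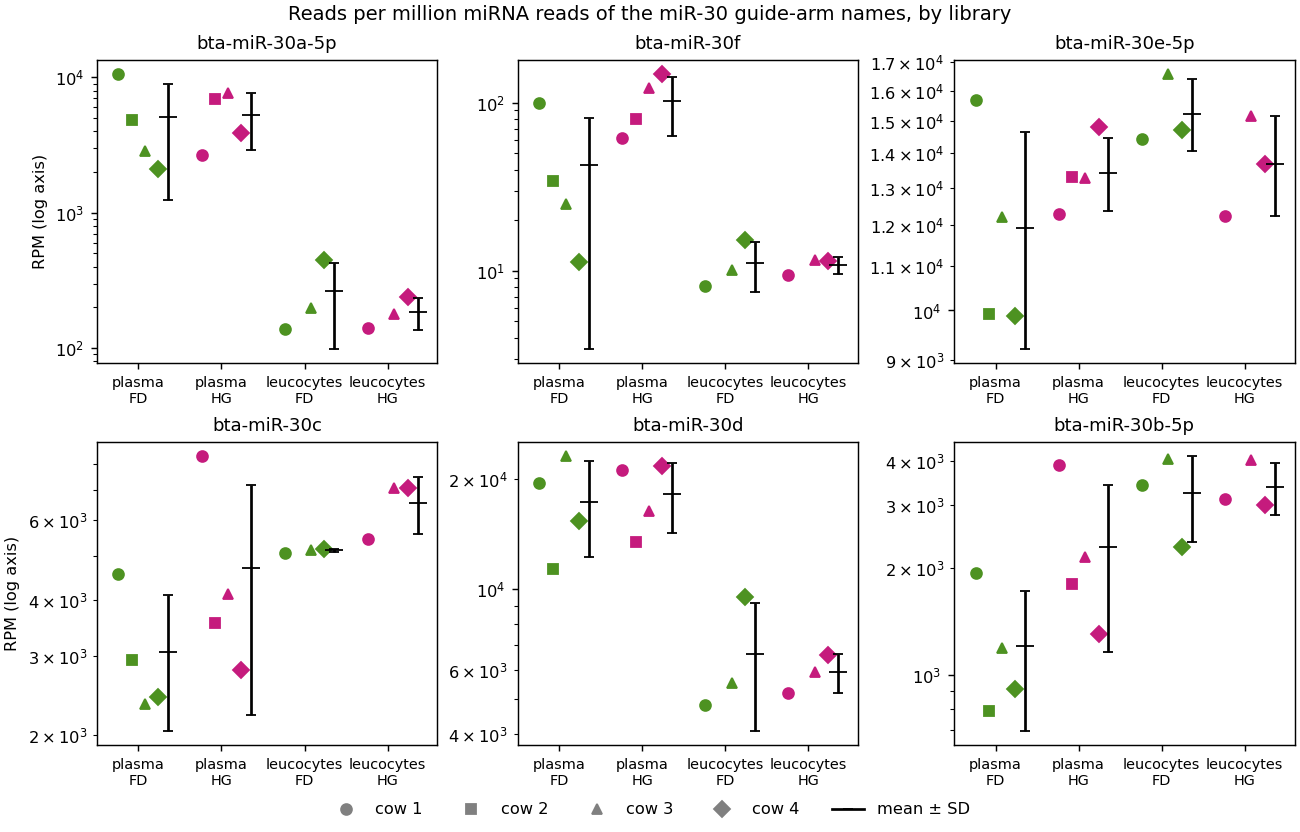
Level of each guide-arm name of the family in RPM (log axis, own scale per panel) in the 14 libraries. Symbols are cows, green is FD, magenta is HG, and the black bars are the mean ± SD of the 4 plasma or 3 leucocyte libraries of a group, with the lower end of a bar cut at 2% of the mean where it would reach 0. bta-miR-30a-5p was at 2093 RPM or more in every plasma library and at 449 RPM or less in every leucocyte library.

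bta-miR-30d was at 19424, 11349, 23170 and 15318 RPM in FD plasma of cows 1 to 4 and at 21138, 13435, 16294 and 21668 RPM in HG plasma. In leucocytes of cows 1, 3 and 4 it was at 4804, 5522 and 9511 RPM on FD and at 5174, 5931 and 6602 RPM on HG. Every leucocyte library was therefore below every plasma library, and the diets overlapped within each sample type. Its neighbour bta-miR-30b-5p ran the other way, at 1936, 793, 1191 and 911 RPM in FD plasma and at 3426, 4037 and 2290 RPM in FD leucocytes. On HG the plasma levels of bta-miR-30b-5p were 3900, 1801, 2138 and 1302 RPM and the leucocyte levels 3123, 4026 and 3000 RPM, and here cow 1 brought plasma into the leucocyte range.

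The chromosome 3 pair was more alike between the sample types. bta-miR-30e-5p, whose guide arm differs from that of miR-30a in only a few bases, was at 15672, 9935, 12205 and 9883 RPM in FD plasma and at 12285, 13308, 13277 and 14811 RPM in HG plasma. Its leucocyte levels were 14424, 16579 and 14693 RPM on FD and 12239, 15141 and 13684 RPM on HG, and the ranges of all 4 groups overlapped. bta-miR-30c was at 4553, 2932, 2342 and 2434 RPM in FD plasma and at 8360, 3556, 4125 and 2786 RPM in HG plasma. It lay at 5088, 5167 and 5179 RPM in FD leucocytes and at 5454, 7092 and 7093 RPM in HG leucocytes, so that every HG leucocyte library was above every FD one.

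bta-miR-30a-5p varied widely between plasma libraries, with 10627, 4846, 2860 and 2093 RPM on FD and 2676, 6894, 7638 and 3900 RPM on HG in cows 1 to 4. In leucocytes it was at 139, 199 and 449 RPM on FD and at 140, 177 and 239 RPM on HG. No leucocyte library came near the lowest plasma library. The 4 plasma libraries with the most bta-miR-30a-5p (FD of cows 1 and 2, HG of cows 2 and 3) had erythrocyte marker sums of 83878, 93440, 87876 and 87250 RPM, and the other 4 had 44975, 53427, 28701 and 51485 RPM. Of these markers bta-miR-486 did not follow the split, at 18880, 29773, 21750 and 17977 RPM against 22956, 26656, 6140 and 25465 RPM. The muscle marker sums also separated the same libraries, though narrowly, at 811, 286, 828 and 1375 RPM against 252, 250, 201 and 272 RPM. Of the muscle markers only bta-miR-1 followed the split, at 275 RPM or more against 243 RPM or less. bta-miR-133a did not, at 10.3 RPM in FD plasma of cow 2 against 29.1 RPM in FD plasma of cow 4. Nor did bta-miR-206, at 0.70 and 119 RPM in the same libraries. The leucocyte libraries had higher erythrocyte sums, lower muscle sums and far less bta-miR-30a-5p. The part of erythrocyte or muscle RNA in its plasma level was not tested.

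bta-miR-30f, the other member of the chromosome 9 pair, was the least abundant guide arm. It had 99.6, 34.3, 25.0 and 11.3 RPM in FD plasma, from 37.5, 49, 44 and 35 estimated reads, and 61.4, 80.0, 122 and 149 RPM in HG plasma. In leucocytes it was at 8.07, 10.1 and 15.3 RPM on FD and at 9.42, 11.6 and 11.4 RPM on HG. Its level is uncertain because it shares reads with other names. Dividing these reads among the names removed 21.6 to 27.6% of its reads in leucocytes and 0 to 8.33% in plasma, and at most 2.35% of the reads of bta-miR-30a-5p in any library.

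The order of the levels had a few neighbours that did not separate. In plasma bta-miR-30d exceeded bta-miR-30e-5p in 4 of 4 libraries on each diet, although their ranges overlapped, and bta-miR-30a-5p exceeded bta-miR-30c in 3 of 4 libraries on each diet. In leucocytes bta-miR-30e-5p stood above all other members without overlap. The next 2, bta-miR-30d and bta-miR-30c, overlapped on both diets, with bta-miR-30d higher in 2 of 3 libraries on FD and bta-miR-30c higher in 3 of 3 on HG. These are ranks of read counts, which also depend on how well each sequence was captured by the library kit.

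**Figure D2:**
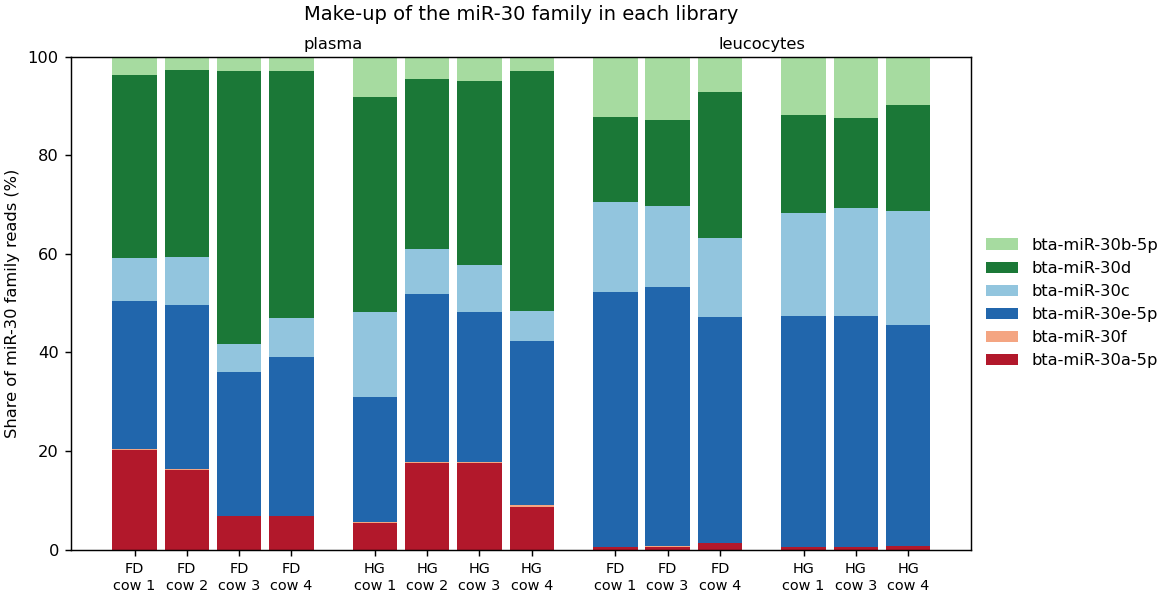
Share of the reads of the family (%, stacked to 100) held by each guide-arm name in the 14 libraries, with bta-miR-30b-3p left out because it held at most 0.111%. The red segment of bta-miR-30a-5p is 5.52 to 20.3% in plasma and 0.497 to 1.40% in leucocytes, where the blue segments of the chromosome 3 pair fill 61.8 to 70.0%.

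Shares within the family do not depend on how libraries are scaled, and the make-up of the family separated the sample types without overlap. The chromosome 9 pair held 5.65 to 20.5% of the family's reads in plasma and 0.526 to 1.45% in leucocytes. The chromosome 3 pair held 34.8 to 43.2% in plasma and 61.8 to 70.0% in leucocytes, and the chromosome 14 pair held 39.0 to 58.3% and 29.5 to 36.7%. Within the chromosome 14 pair the log2 ratio of bta-miR-30d to bta-miR-30b-5p was 2.44 to 4.28 in plasma and 0.45 to 2.05 in leucocytes. Between pairs, the log2 ratio of bta-miR-30d to bta-miR-30e-5p was 0.01 to 0.92 in plasma and -1.59 to -0.63 in leucocytes, and that of bta-miR-30d to bta-miR-30a-5p was 0.87 to 3.02 and 4.40 to 5.21. Within the chromosome 9 pair the log2 ratio of bta-miR-30a-5p to bta-miR-30f was 4.71 to 7.53 in plasma and 3.89 to 4.87 in leucocytes, so the ranges overlapped at their edges. Within the chromosome 3 pair the log2 ratio of bta-miR-30e-5p to bta-miR-30c was 0.56 to 2.41 in plasma and 0.95 to 1.68 in leucocytes, and here the leucocyte range lay inside that of plasma. The ratio of neighbouring hairpins thus separated the sample types on chromosome 14 and did not on chromosomes 3 and 9.

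Which members were higher in leucocytes or in plasma was tested over the 12 libraries of cows 1, 3 and 4 with edgeR's quasi-likelihood test, with cow as a block, TMM scaling and Benjamini-Hochberg adjustment over 794 names. On FD 4 of the 6 guide-arm names were called at an adjusted p under 0.05, against 38.0% of all names, and on HG 4 of 6, against 35.1%. In leucocytes bta-miR-30a-5p was lower by a log2 fold change of -2.97 (SE 0.53, adjusted p = 0.0019) on FD and -3.17 (SE 0.52, adjusted p = 0.0012) on HG, and it was lower in 3 of 3 cows on each diet. bta-miR-30b-5p was higher, by 2.58 (SE 0.43, adjusted p = 0.0014) and 1.98 (SE 0.43, adjusted p = 0.0071). bta-miR-30c was higher by 2.05 (SE 0.42, adjusted p = 0.0042) and 1.89 (SE 0.42, adjusted p = 0.0084), and bta-miR-30e-5p by 1.59 (SE 0.33, adjusted p = 0.0048) and 1.43 (SE 0.33, adjusted p = 0.0098). In RPM, before TMM scaling, these rises were seen in fewer cows, since on HG bta-miR-30b-5p and bta-miR-30c were higher in leucocytes in 2 of 3 cows and bta-miR-30e-5p in 1 of 3. The fifth member called on FD was bta-miR-30b-3p, which had no read listed in FD plasma and is described below by its counts. Each cow gave 1 library per diet and sample type. The p-values rest on the spread left after each cow's own level is removed, pooled over the 4 groups. That spread is partly estimated from all names tested and comes from these few cows. Its common value over all names (edgeR's biological coefficient of variation) was 0.70. In the separate fits for diet it was 0.84 in plasma and 0.24 in leucocytes, so sample types of unequal spread were pooled.

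**Figure D3:**
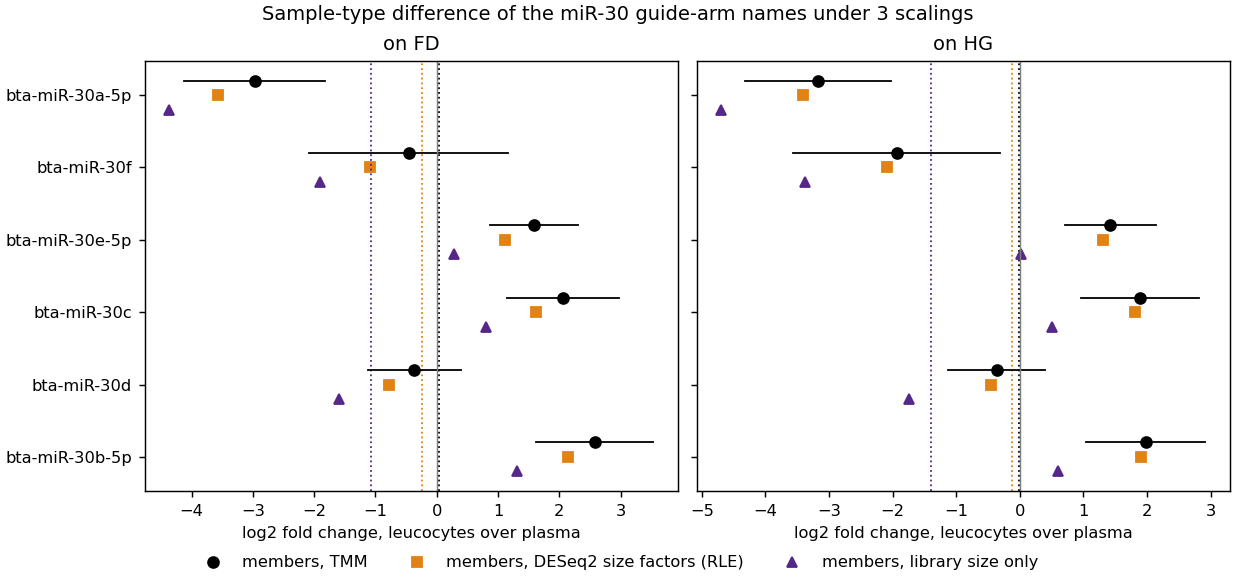
Log2 fold change of leucocytes over plasma for the 6 guide-arm names on FD and on HG, from edgeR with TMM scaling (black, with the 95% interval), with DESeq2 size factors (orange) and with library size only (purple). Dotted lines are the median of the 258 names with at least 10 reads in all 12 libraries under the same scaling, and each name keeps its side of 0 under all 3.

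The other members did not pass the test. bta-miR-30d had a log2 fold change of -0.37 (95% interval -1.13 to 0.39) on FD and -0.36 (-1.12 to 0.40) on HG, and bta-miR-30f had -0.46 (-2.08 to 1.16) and -1.94 (-3.56 to -0.31, adjusted p = 0.061). Over the 6 guide-arm names the median was 0.61 on FD and 0.53 on HG, with 3 names positive and 3 negative on each diet. All 794 names had medians of 2.29 and 1.31, which include many names with few or no reads in plasma. The 258 names with at least 10 reads in all 12 libraries had medians of 0.04 and -0.02.

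These sizes depend on the scaling, since the TMM factors were 1.37 to 2.26 in plasma and 0.44 to 0.88 in leucocytes. Library size alone moved the median of all names by -1.04 on FD and -1.36 on HG, and changed the calls over all names on FD from 222 higher and 80 lower to 80 higher and 122 lower, and on HG from 179 and 100 to 74 and 184. All 6 guide-arm names kept their direction under TMM, DESeq2 size factors and library size. With library size alone, bta-miR-30e-5p was at 0.28 (adjusted p = 0.46) and 0.02 (adjusted p = 0.96) and bta-miR-30c at 0.80 (adjusted p = 0.12) and 0.50 (adjusted p = 0.35), whereas bta-miR-30d was called at -1.60 (adjusted p = 0.0055) and -1.75 (adjusted p = 0.0025). Only bta-miR-30a-5p was called on both diets under all 9 alternatives, at -4.43 to -2.15 on FD and -4.70 to -3.25 on HG. Without cow 3 the members called fell to 2 on FD and 1 on HG, and without cow 4 to 1 and 1. In RPM, 5 of the 7 members did not overlap between plasma and leucocytes on FD, against 51.9% of 797 names, and 4 of 7 on HG, against 53.8%. The 5 on FD include bta-miR-30b-3p, which had no read listed in FD plasma.

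The change of diet was then compared within each sample type, with cow as a block. In plasma none of the 7 members was called, against 0% of the 536 names tested, where 46 names had an unadjusted p under 0.05 with edgeR and the DESeq2 Wald test called 12 names and no member. Among the guide arms bta-miR-30f had the largest estimate, a log2 fold change of 1.19 (95% interval -0.92 to 3.31), with higher RPM on HG in 3 of 4 cows. Without cow 4 it fell to 0.50, below bta-miR-30b-5p at 0.58. With all cows bta-miR-30b-5p followed at 0.48 (-0.64 to 1.60), and bta-miR-30c was at 0.12 (-0.99 to 1.24). bta-miR-30a-5p was at -0.18 (-1.24 to 0.88), bta-miR-30e-5p at -0.20 (-1.11 to 0.70) and bta-miR-30d at -0.30 (-1.37 to 0.76). The median of these 6 was -0.03, and that of all 536 names was 0.26. For each of these names the interval reaches past 1 or -1 on the log2 scale, so changes of that size are within what 4 cows leave undecided. Without scaling beyond library size bta-miR-30a-5p, bta-miR-30d and bta-miR-30e-5p turned to 0.29, 0.091 and 0.19, and without cow 1 bta-miR-30a-5p turned to 0.20 and bta-miR-30c to -0.31, none of them called.

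**Figure D4:**
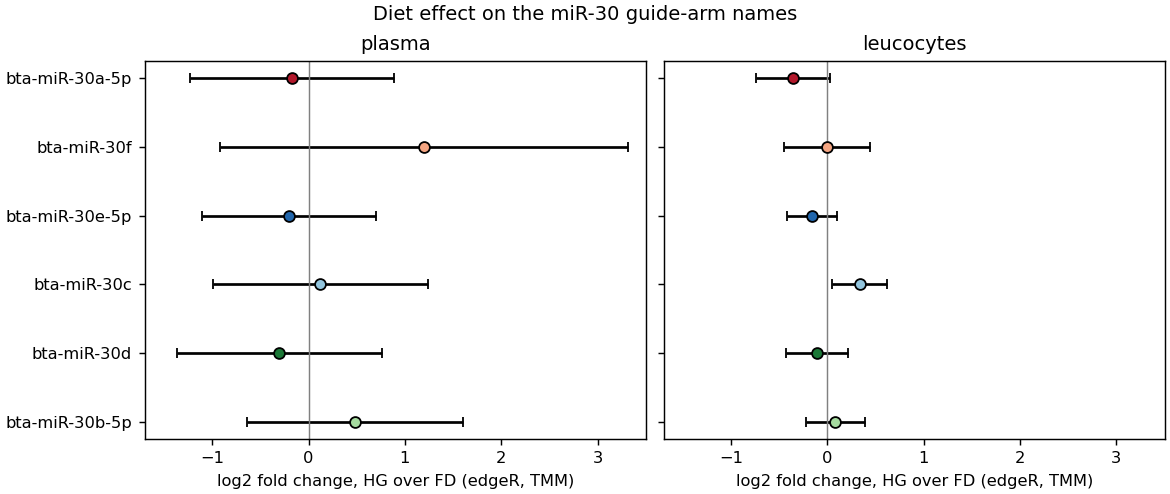
Log2 fold change of HG over FD (edgeR, TMM scaling, cow as a block) for the 6 guide-arm names in plasma (4 cows) and leucocytes (3 cows), with 95% intervals. Each plasma interval spans 0, and in leucocytes only that of bta-miR-30c, from 0.05 to 0.62, stays above 0 before adjustment.

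In leucocytes none of the 7 members was called either, against 1.80% of 779 names (3 higher and 11 lower on HG). bta-miR-30c came nearest, at 0.33 (95% interval 0.05 to 0.62, unadjusted p = 0.026, adjusted p = 0.23 by edgeR), and was higher on HG in 3 of 3 cows. It was also the 1 of 7 members whose HG and FD libraries did not overlap in RPM, against 14.8% of the 779 names. bta-miR-30a-5p was at -0.36 (-0.74 to 0.02), bta-miR-30e-5p at -0.16 (-0.42 to 0.10) and lower in 3 of 3 cows, and bta-miR-30d at -0.11 (-0.43 to 0.21). bta-miR-30b-5p was at 0.08 (-0.23 to 0.39) and bta-miR-30f at 0.00 (-0.45 to 0.44). Without cow 4, bta-miR-30a-5p was at -0.10 and bta-miR-30c at 0.25, and bta-miR-30d turned to 0.081. The median over the 6 guide arms was -0.06, and over all 779 names it was -0.02. The interaction term of the 12-library fit tested whether the diet effect differed between the sample types. It called 0 of 7 members and 0% of 794 names, of which 56 had an unadjusted p under 0.05 with edgeR, and the DESeq2 Wald test called 14 names, among them bta-miR-30b-3p, for which no read was listed in FD plasma.

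Ratios between members, both neighbours on the chromosome and members of different pairs, do not move with scaling and were set side by side for the diets. In leucocytes the log2 ratio of bta-miR-30e-5p to bta-miR-30c was 1.50, 1.68 and 1.50 on FD and 1.17, 1.09 and 0.95 on HG in cows 1, 3 and 4, and was lower on HG in 3 of 3 cows by 0.49 ± 0.14 (SD). In plasma this ratio was lower on HG in 2 of 4 cows. The plasma ratio of bta-miR-30d to bta-miR-30b-5p was lower on HG in 4 of 4 cows, with a mean difference of -0.80 ± 0.56 (SD), and that of bta-miR-30a-5p to bta-miR-30f in 4 of 4 cows, with -1.42 ± 0.96. In leucocytes the ratio of bta-miR-30a-5p to bta-miR-30f was lower on HG in 3 of 3 cows (-0.35 ± 0.13) and that of bta-miR-30d to bta-miR-30a-5p was higher in 3 of 3 (0.25 ± 0.15). These are the 5 that had 1 sign in every cow, of 10 differences looked at (5 ratios in each sample type), and they were described without a test, because an exact sign-flip test cannot go below p = 0.13 with 4 cows or 0.25 with 3.

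The passenger arm bta-miR-30b-3p was the member with the sharpest contrast in reads. The study had singled it out on these libraries, so its plasma pattern here is a description and not independent evidence. The study also measured it by RT-qPCR in plasma and leucocytes of the same cows, with a later week of HG added. In plasma it reported higher expression in week 1 of HG than on forage, short of its own significance threshold. For leucocytes it described a relatively higher expression on forage, compared with plasma. In the libraries bta-miR-30b-3p was listed in none of the 4 FD plasma libraries and had 240, 3, 5 and 116 reads in HG plasma of cows 1 to 4, from 3, 1, 2 and 2 distinct read sequences. In the same 4 libraries, names with a read count within 1.5 times of it had medians of 5, 1, 2 and 3 distinct sequences. In leucocytes it had 161, 177 and 114 reads on FD and 145, 119 and 78 on HG, from 7 to 14 distinct sequences. Reads were thus present in every leucocyte library on both diets, and in plasma they were listed on HG alone. Every HG plasma library also listed more miRNA names in all than every FD plasma library. The HG libraries listed 538, 504, 514 and 521 names in cows 1 to 4, and the FD libraries 410, 451, 444 and 454.

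Depth and guide-arm level differ between these libraries, and the share of the passenger arm among the reads of both arms sets it against its own hairpin. In HG plasma the share was 1.36% (exact 95% interval 1.19 to 1.54), 0.170% (0.0352 to 0.497), 0.220% (0.0713 to 0.512) and 2.55% (2.11 to 3.06) in cows 1 to 4. Leucocytes had 0.0711, 0.0777 and 0.228% on FD and 0.0865, 0.0755 and 0.0943% on HG in cows 1, 3 and 4. Cows 1 and 4 on HG were therefore above every leucocyte library beyond counting error, while the intervals of cows 2 and 3 reached down to leucocyte values. The intervals are Clopper-Pearson intervals and cover counting error only. They describe a name that was singled out through its HG plasma reads.

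**Figure D5:**
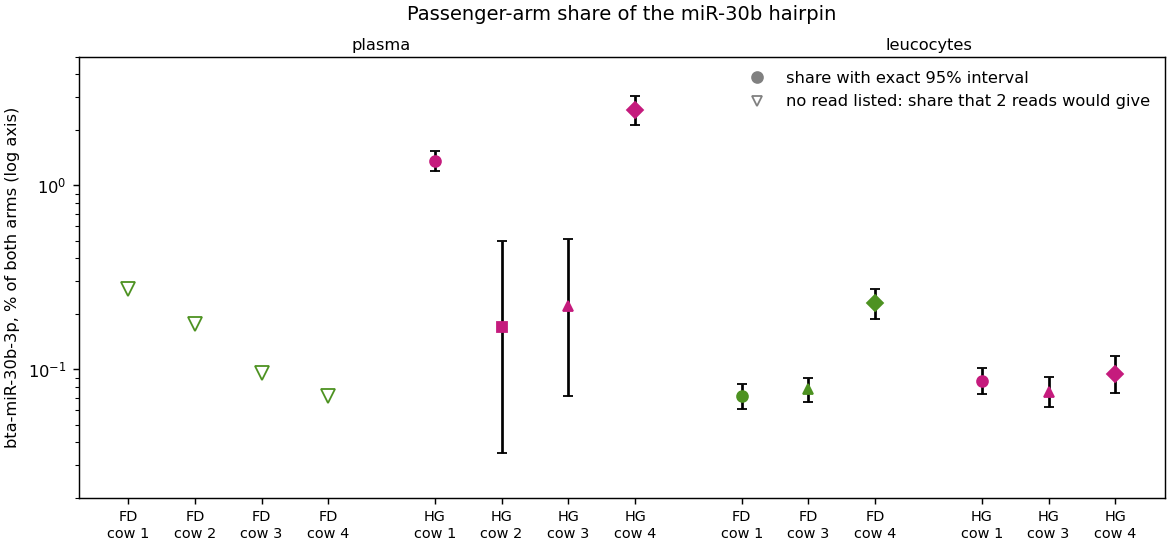
Reads of bta-miR-30b-3p as a percentage of the reads of both arms of its hairpin (log axis) in the 14 libraries, with exact 95% intervals. Open triangles mark the 4 FD plasma libraries, where no read was listed, at the share that 2 reads would give, 0.0710 to 0.274%. HG plasma of cows 1 and 4 stands at 1.36 and 2.55%.

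The files list no name with fewer than 2 reads, so a name that is missing had 0 or 1 read. In FD plasma the guide arm had 729, 1132, 2092 and 2814 reads, and 2 passenger reads would have been a share of 0.274, 0.176, 0.0955 and 0.0710% in cows 1 to 4. With 1 unlisted read the exact 95% interval would reach up to 0.761, 0.491, 0.266 and 0.198%. The HG intervals of cows 1 and 4 began above all 4 of these limits, at 1.19 and 2.11%, and those of cows 2 and 3 began below all 4. This describes counts of a name that was singled out for its HG reads, and is no test of diet. At the shares seen in leucocytes, the FD plasma guide reads would have come with 0.518 to 6.42 passenger reads per library, so a leucocyte-like share was at the edge of what these libraries could show. No fold change and no test of the diet difference in plasma is given for bta-miR-30b-3p, since its FD libraries are under the smallest listed count and it passed the filter on low counts only through the HG libraries.

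The log2 ratio of passenger to guide arm, with 0.5 added to each count, was compared where both groups had passenger reads. Between the diets in leucocytes it differed by -0.34 ± 0.82 (SD) and was higher on HG in 1 of 3 cows (exact two-sided sign-flip permutation test, p = 0.75). On HG the ratio was lower in leucocytes than in plasma in 3 of 3 cows, by -3.48 ± 1.62. This difference is a description only and no evidence of a sample-type difference. The name was singled out through its HG plasma reads, and FD plasma, where none were listed, did not enter. bta-miR-30b-3p was the 1 of 7 members whose diets did not overlap in plasma. Of the 536 names, 27 (5.04%) did not overlap with HG higher and 0 with HG lower. The study had singled out bta-miR-30b-3p on these libraries, and it passed the filter only through HG. Its non-overlap is therefore a description and no evidence of a diet effect.

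Within each sample type the members did not vary as 1 group. In the 8 plasma libraries Pearson's r of log2(RPM + 1) between the 6 guide arms had a median of 0.44 over 15 pairs and ran from -0.24, for bta-miR-30a-5p with bta-miR-30d, to 0.91, for bta-miR-30b-5p with bta-miR-30c. Chromosomal neighbours had r of 0.68 (bta-miR-30a-5p and bta-miR-30f), 0.42 (bta-miR-30d and bta-miR-30b-5p) and 0.31 (bta-miR-30c and bta-miR-30e-5p). In the 6 leucocyte libraries bta-miR-30a-5p, bta-miR-30d, bta-miR-30f and bta-miR-30b-3p varied together (r = 0.91 to 0.98 for their 6 pairs), with FD of cow 4 highest for each. bta-miR-30b-5p ran against bta-miR-30d there (r = -0.75). These values share libraries, depth and scaling, and are descriptions without a test.

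Outside the family, the 2 bovine names that followed each member most closely over the 14 libraries were found among 179 names with at least 10 reads in every library, by Pearson's r of log2(RPM + 1). The libraries form a plasma and a leucocyte cluster, so r mostly describes that split, and no test was made. bta-miR-30a-5p was most like bta-miR-200a (r = 0.99) and bta-miR-205 (r = 0.99), both also scarce in leucocytes, with means of 42.6 and 126 RPM there and 2104 and 3700 RPM in plasma. bta-miR-30d was nearest to bta-let-7c (0.95) and bta-miR-126-3p (0.94), and bta-miR-30f to bta-miR-379 (0.96) and bta-miR-195 (0.95), again names with more RPM in plasma. The members with more RPM in leucocytes were nearest to other such names, bta-miR-30b-5p to bta-miR-186 (0.90) and bta-miR-6119-5p (0.83), and bta-miR-30c to bta-miR-186 (0.87) and bta-miR-26a (0.85). bta-miR-30e-5p had the loosest neighbours, bta-miR-6119-3p (0.81) and bta-miR-532 (0.77), and bta-miR-30b-3p was not compared because of its low counts.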

How the data were processed

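Plasma (8) and leucocyte (6) small RNA libraries were grouped by the labels' tissue and diet. As described by the study, reads were demultiplexed with bcl2fastq 2.20, trimmed with Skewer and assigned with sRNAbench (Bowtie, 2 mismatches) to UMD3.1 and miRBase names. The deposited files give whole read counts, distinct sequences, estimated counts (expected counts, with reads of several names divided among them) and RPM, which the authors scaled to miRNA reads or to all reads. The authors' size-factor-normalized tables were not used. Read totals were recovered from count and RPM.

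Estimated counts were rounded and tested with edgeR 4.0.16 (R 4.3.3; robust quasi-likelihood fit, TMM, at least 10 reads in total, cow as a block, Benjamini-Hochberg adjusted p under 0.05). SE is the log2 coefficient over the root of F. The scripts were tested on simulated counts. Alternatives were DESeq2 1.42.0, other scalings, no filter, undivided counts, no block and each cow left out. Members, markers and tests were chosen with earlier results of these data known. All 7 members are named, with fixed markers and the 2 closest names of each. The plan's limit of 3 reads was replaced by the smallest listed count, 2.

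Cow numbers of plasma follow the label order. They were checked against the study's supplementary table, where 504 of 504 values equal the read counts. Leucocyte labels carry animal letters, which that table numbers. Deviations of the same cow on both diets correlated at 0.448 to 0.658 in leucocytes (between cows at most 0.322) and at -0.398 to 0.312 in plasma (between cows -0.541 to 0.633), so in plasma the profiles do not show the pairing. Nothing states that libraries were replicated beyond 1 per cow and diet. No miRNA sequences were printed, since no sequence table was used here.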

Additional observations from a re-analysis of the deposited data

How the results depend on the processing

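Of 578 values recomputed under alternatives, 485 stayed the same by a rule set for each kind of value. Log2 values kept their direction and their side of the threshold. Counts of calls were equal or within 1.5 times of each other, and shares stayed within the replicate spread. With the DESeq2 Wald test the names called for diet rose to 12 in plasma and 36 in leucocytes, and for the interaction to 14 names and 1 member, bta-miR-30b-3p. DESeq2 size factors gave 9 names for diet in leucocytes. Without the replicate block (no pairing by cow) diet called 0 names in leucocytes and 0 in plasma. The 12-library fit then also took in the plasma libraries of cow 2, so both the pairing and the set of libraries changed. In that fit the sample types differed in 346 names on FD and 307 on HG with 6 and 5 members. The interaction of bta-miR-30c turned to 0.072 there and that of bta-miR-30e-5p to 0.13. With all reads analysed as the denominator the family share was 1.81% in FD plasma, 2.85% in HG plasma, 2.69% in FD leucocytes and 2.59% in HG leucocytes.

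Leaving out 1 cow at a time gave 0 to 111 names for diet in leucocytes (9 without cow 1, 0 without cow 3, 111 without cow 4), 0 to 13 names and 0 to 1 members for the interaction (13 and 1 without cow 3), 117 to 177 names and 1 to 4 members for the sample types on FD and 136 to 204 names and 1 to 4 members on HG. bta-miR-30f for diet in plasma fell to 0.50 without cow 4. The arm ratio between diets in leucocytes ranged from -0.66 to 0.12, positive without cow 4. Diet in plasma ranged from -0.45 to 0.20 for bta-miR-30a-5p, -0.31 to 0.42 for bta-miR-30c, -0.66 to 0.078 for bta-miR-30d and -0.37 to 0.0096 for bta-miR-30e-5p. Diet in leucocytes ranged from -0.41 to 0.030 for bta-miR-30b-3p, -0.093 to 0.24 for bta-miR-30b-5p, -0.17 to 0.081 for bta-miR-30d and -0.072 to 0.18 for bta-miR-30f. bta-miR-30f ranged from -1.81 to 0.37 between the sample types on FD. The interaction ranged from -1.10 to 0.50 for bta-miR-30a-5p, -0.95 to 0.091 for bta-miR-30b-5p, -0.50 to 0.58 for bta-miR-30c, -0.40 to 0.43 for bta-miR-30d and -0.14 to 0.088 for bta-miR-30e-5p.

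Other turned directions were all of log2 fold changes that no fit called. With library size alone diet in plasma was 0.29 for bta-miR-30a-5p, 0.091 for bta-miR-30d and 0.19 for bta-miR-30e-5p, and the interaction of bta-miR-30d was -0.15. Undivided counts gave 0.029 for bta-miR-30f for diet in leucocytes. The interactions of bta-miR-30a-5p, bta-miR-30c and bta-miR-30e-5p turned to 0.17, 0.19 and 0.19 with the DESeq2 Wald test as with its size factors, to 0.064, 0.029 and 0.088 without a filter and to 0.092, 0.079 and 0.16 with undivided counts. The causes were not tested. Leucocyte fits hold no cow 2, and sample-type fits hold it only without the block, where all 14 libraries entered. Depth limits mainly bta-miR-30b-3p and bta-miR-30f in FD plasma.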

Other observations

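A second passenger arm of the family appeared under a human name. Reads called hsa-miR-30c-2-3p were placed on the hairpin of bta-miR-30f, and no guide arm of the family was listed under a human name. It had 0, 4, 4 and 2 reads in FD plasma (up to 2.80 RPM) and 11, 9, 16 and 10 reads in HG plasma (2.46 to 15.1 RPM) of cows 1 to 4. In leucocytes it had 10, 10 and 11 reads on FD and 3, 5 and 0 on HG, where 0 stands for a name that was not listed. In plasma RPM the diets overlapped, because cow 1 on HG was below cow 2 on FD.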
